A study of Nothobranchius furzeri with 3 samples.

Results

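The genes described here are areg (amphiregulin), the other epidermal growth factor (EGF) family ligands and the ErbB receptors of Nothobranchius furzeri, together with the receptor inhibitor errfi1 and the ligand-shedding protease adam17. They were measured in p63-positive cells of the epidermal basal layer by photo-isolation chemistry (PIC). In PIC, reverse transcription primers are uncaged by UV light so that mainly RNA of irradiated cells is amplified. The methods of the paper name sections of trunk and fin, while a figure legend names the fin. Counts are of unique molecular identifiers (UMIs), which mark single cDNA molecules, and a level is given as CPM, the count scaled by the total of its library to 1e+06. Members were the rows of the count table whose symbol equals areg, ereg, hbegf, tgfa, egf, egfr, erbb2, erbb3, errfi1 or adam17, also with a final a or b. Of these 10 symbols 9 were found, for 13 of the 22954 genes in the table, and ereg was not among the symbols, while 7487 genes carry no symbol. areg was selected on its UMI counts in aged (Tm) libraries, which were high in an earlier look at these data, and the other members were taken by name as its family. The values of aged (Tm) against the other groups are therefore a description for areg, with no test.

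Aged (Tm) fish (3 libraries) were aged fish treated with tunicamycin at 1 µg/mL, an inhibitor of N-glycosylation that causes ER stress. Treatment is given as overnight in the labels and as a full day in the methods for fish. Aged fish (4 libraries) and young fish (4 libraries) were controls kept in DMSO. The paper treats libraries as biological replicates, while the labels give neither the ages nor whether each library is a separate fish, so p-values measure only the spread between these libraries. Because 1 library name is given for each condition and the same sample barcodes recur in all of them, the sequencing library and the condition cannot be told apart.

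EGF family ligands are made as membrane proteins of the sending cell, and cleavage by ADAM metalloproteases such as Adam17 releases the soluble growth factor. Ligand binding lets ErbB receptors pair and phosphorylate each other, which turns on the Ras-ERK and PI3K-Akt cascades. In skin these signals are known to drive proliferation and migration of basal keratinocytes, for example during wound closure, and Errfi1 is a feedback inhibitor that binds the active receptor kinase and blocks it.

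Total counts were 319223 to 705538 in aged (Tm), 37655 to 265509 in aged and 35366 to 298033 in young libraries. A gene with 0 counts in the smallest young library could still have been present at up to 84.8 CPM (3 counts), so most single values below that level are imprecise, and intervals and such limits cover counting error only. tp63, which defines the irradiated cells, had 1251, 1673 and 1548 CPM in aged (Tm) libraries, 319 to 1381 CPM in aged and 424 to 1544 CPM in young libraries. The 8 matched basal keratinocyte markers, tp63 among them, summed to less in every aged (Tm) library, 13483 to 14419 CPM, than in any aged library, 25434 to 32984 CPM, or young library, 22497 to 59209 CPM. Within that sum krt5, a basal keratin, had 10010, 11049 and 6119 CPM in aged (Tm), 16335 to 32187 CPM in aged and 14532 to 57541 CPM in young libraries (log2 fold change over aged −0.89 ± 0.81, adjusted p = 0.391, edgeR). Of the 6 tested genes of that list, itgb4 and ITGA6 were called higher and ITGA6A lower in aged (Tm) than in aged libraries. ITGA6A passed the filter on low counts through aged libraries, so its call is only a description. The part of these differences in the results was not tested. Of 21 matched genes of the ER stress response list, 7 passed that filter and were tested. All 7 were called higher in aged (Tm) than in aged libraries, and 3 of them with total count scaling. Among these, atf3, sdf2l1, HYOU1 and CRELD2 had 132, 132, 115 and 116 counts in aged (Tm), against at most 29 in aged and 19 in young. They passed the filter mainly through aged (Tm), so their calls are only a description. CHAC1 led with a log2 fold change of 4.77 ± 0.85 (SE). Of all tested genes 18.5% were called higher. In a fit without the filter 12 of the 21 were called higher, where 6.12% of all genes were. XBP1, HERPUD1 and EDEM1 had at most 5 counts in each group and were not called. Summed markers of skeletal muscle had 4361 to 6798 CPM in aged (Tm), 5435 to 22680 CPM in aged and 21249 to 84969 CPM in young libraries, and those of fibroblasts 297 to 1449, 721 to 2844 and 7267 to 13642 CPM. In such bulk samples fewer cells of a type and less RNA per cell cannot be told apart.

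The ligand areg, on the chromosome the table names sgr18 (ENSNFUG00015018534), had 360, 95 and 44 counts in the aged (Tm) libraries. In aged libraries it had 0, 4, 0 and 2 counts and in young libraries 1, 0, 0 and 5. As levels these were 1038, 298 and 62.4 CPM in aged (Tm), 0, 15.1, 0 and 11.1 CPM in aged and 9.36, 0, 0 and 16.8 CPM in young libraries. Every aged (Tm) library lay above every aged and young library, and within aged (Tm) the highest library had more than 10 times the level of the lowest. Replicate 3 of aged (Tm) was nevertheless below the 79.7 and 84.8 CPM that 0 counts allow in replicate 1 of aged and replicate 3 of young.

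In a fit of all 11 libraries with edgeR the log2 fold change of areg was 5.88 ± 0.95 (SE) over aged and 6.08 ± 0.97 over young. Ordered by fold change, areg was the 5th highest of the 3963 tested genes over aged and the 7th over young. Without replicate 1 of aged (Tm) the gene was too scarce to be tested. With no such filter its log2 fold change over aged was 6.51 with all libraries and 4.96 without that replicate.

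**Figure D1:**
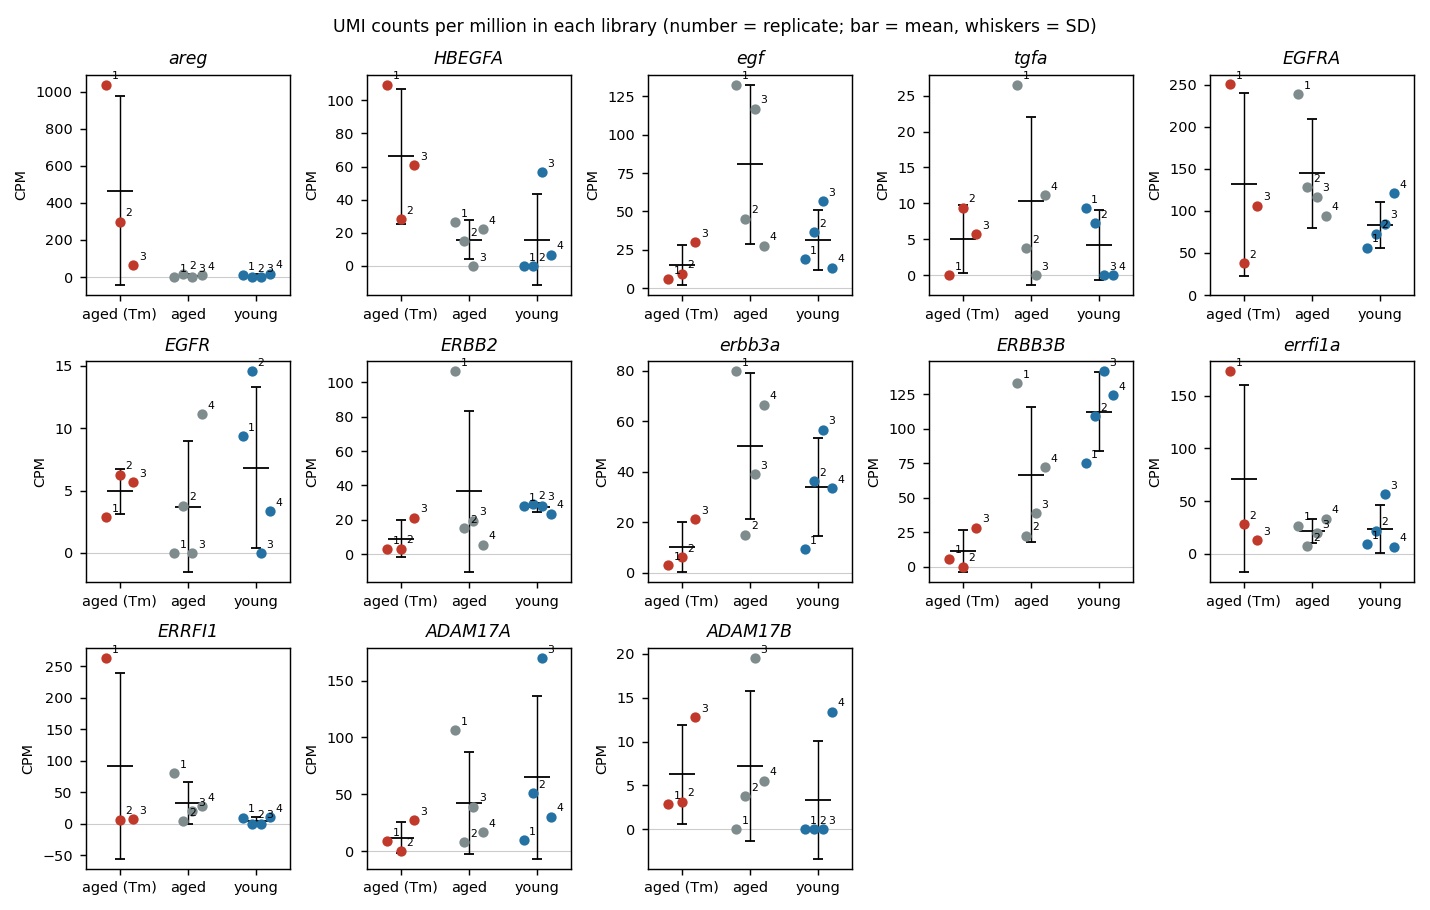
Level of each of the 13 members in CPM (y axis, own linear scale per gene) in the aged (Tm), aged and young libraries (x axis); points are libraries numbered by replicate, bars the group mean and whiskers the SD. The 3 aged (Tm) libraries sit at 62.4 to 1038 CPM for areg, above all 8 other libraries, whereas ERBB3B is lowest in aged (Tm), at 0 to 28.3 CPM.

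The second ligand with more counts in aged (Tm) was HBEGFA, one of the fish genes for heparin-binding EGF, a membrane-anchored ligand of Egfr and ErbB4 known from wound repair. It had 38, 9 and 43 counts in aged (Tm), 1, 4, 0 and 4 in aged and 0, 0, 2 and 2 in young libraries. Mean levels were 66.2 ± 40.9 CPM (SD, n = 3) in aged (Tm), 16.0 ± 11.6 CPM (n = 4) in aged and 15.8 ± 27.3 CPM (n = 4) in young libraries. The lowest aged (Tm) library, at 28.2 CPM, was just above the highest aged library, at 26.6 CPM, and below replicate 3 of young, where 2 counts gave 56.6 CPM. HBEGFA rose in aged (Tm) over aged by 2.28 ± 0.75 on the log2 scale (adjusted p = 0.0320, edgeR) and over young by 3.45 ± 0.87 (adjusted p = 0.00916). With 90 counts in aged (Tm), 9 in aged and 4 in young, it passed the filter on low counts mainly through aged (Tm). These p-values are therefore only a description. With scaling by total counts alone the difference to aged was 1.78 and no longer passed (adjusted p = 0.179).

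The gene egf encodes the founding ligand of the family, which is made as a large membrane precursor. It had 5.76, 9.40 and 29.8 CPM in aged (Tm), 133, 45.2, 117 and 27.7 CPM in aged and 18.7, 36.3, 56.6 and 13.4 CPM in young libraries. The ranges of aged (Tm) and aged met only at replicate 3 of aged (Tm) and replicate 4 of aged. egf in aged (Tm) fell by 1.71 ± 0.65 on the log2 scale relative to aged (adjusted p = 0.0532, edgeR), and its difference to young was −0.43 ± 0.72 (adjusted p = 0.672). These values rest on 26, 28 and 13 counts in aged (Tm), aged and young. The filter on low counts was passed through replicates 1 and 3 of aged, where egf was highest, and replicate 3 of young. The p-values of egf are therefore only a description. The call was lost in a fit without a filter (adjusted p = 0.521), which moved the median fold change of all tested genes up to 0.70, and with DESeq2 (adjusted p = 0.134).

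tgfa, transforming growth factor alpha, was scarce. It had 7 counts in all aged (Tm), 4 in all aged and 2 in all young libraries and did not pass the filter, so a difference was not detectable at this depth. Among the member ligands, the counts of aged (Tm) were thus mostly areg and HBEGFA. An opposite direction was called for egf only against aged, where the call was lost without a filter, and not against young.

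Of the receptors, EGFRA, one of the genes for the EGF receptor that binds areg, tgfa, egf and hbegf in mammals, had the most counts. It had 251, 37.6 and 106 CPM in aged (Tm), 239, 128, 117 and 94.3 CPM in aged and 56.1, 72.7, 84.8 and 121 CPM in young libraries. The 3 groups overlapped. Its log2 fold change was 0.42 ± 0.56 in aged (Tm) over aged (adjusted p = 0.573, edgeR) and 1.02 ± 0.57 over young (adjusted p = 0.188). The sign of the first depended on the scaling, with −0.33 after total count scaling, and on replicate 1 of aged (Tm), without which it was −0.58. Without that replicate the second was −0.04. The other gene, EGFR, had only 7, 3 and 4 counts in aged (Tm), aged and young libraries.

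The erbb3 genes encode a receptor whose kinase is nearly inactive and which signals as a partner of other ErbB receptors after binding neuregulins. erbb3a had 2.88, 6.27 and 21.3 CPM in aged (Tm), 79.7, 15.1, 39.0 and 66.5 CPM in aged and 9.36, 36.3, 56.6 and 33.6 CPM in young libraries. ERBB3B had 5.76, 0 and 28.3 CPM in aged (Tm), 133, 22.6, 39.0 and 72.1 CPM in aged and 74.9, 109, 141 and 124 CPM in young libraries. For ERBB3B every young library was above every aged (Tm) library, and replicate 3 of aged (Tm) reached into the aged range in both genes.

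ERBB3B in aged (Tm) fell by 1.79 ± 0.65 on the log2 scale relative to aged (adjusted p = 0.0450, edgeR) and fell by 2.81 ± 0.61 relative to young (adjusted p = 0.00322). erbb3a fell by 1.70 ± 0.71 relative to aged (adjusted p = 0.0745, edgeR), while its difference to young was −1.22 ± 0.73 (adjusted p = 0.216). It passed the filter through replicates 1 and 4 of aged and replicate 3 of young, so its p-values are only a description. ERBB3B passed through the young libraries and replicates 1 and 4 of aged, so its p-value against young is a description as well. Without a filter on low counts neither gene was called against aged, with adjusted p-values of 0.457 for ERBB3B and 0.521 for erbb3a, whereas ERBB3B was still called against young (adjusted p = 0.0192). The erbb3 genes are also known from glia and their precursors. The 13 matched markers of neurons and glia summed to 11.5 to 43.9 CPM in aged (Tm), 45.2 to 212 CPM in aged and 56.6 to 97.3 CPM in young libraries. Of these 13 genes, 3 were at 0 in aged (Tm), 2 in aged and 3 in young. Both SOX10 genes together had 1 count in aged (Tm), 1 in aged and 0 in young libraries, and the part of these cells in the erbb3 result was not tested.

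ERBB2 encodes the receptor without a known ligand that pairs with the others. It had 2.88, 3.13 and 21.3 CPM in aged (Tm), 106, 15.1, 19.5 and 5.55 CPM in aged and 28.1, 29.1, 28.3 and 23.5 CPM in young libraries. With 17, 10 and 15 counts in the 3 groups it did not pass the filter. Its young libraries lay close together and above all aged (Tm) libraries, and in the fit without a filter its log2 fold change in aged (Tm) over young was −0.56 ± 0.73 (adjusted p = 0.748, edgeR).

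The filter was passed by 6 members, of which areg, chosen for its high counts in aged (Tm), is left out of the counts of calls here. HBEGFA, whose counts were also mostly in aged (Tm), was called higher in aged (Tm) than in aged libraries and the other 3 called members, egf, erbb3a and ERBB3B, lower, at an adjusted p under 0.1. Of all 3963 tested genes, 18.5% were called higher and 20.2% lower in that comparison. Against young libraries HBEGFA was called higher and ERBB3B lower, where 15.9% of all tested genes were called higher and 13.2% lower. Both comparisons share the aged (Tm) libraries. As egf and erbb3a passed the filter mainly through aged libraries, their calls are only a description, like those of HBEGFA. Without replicate 1 of aged (Tm), 0 of the 5 members then tested were called against aged and 1 against young. Of all 4207 genes then tested, 457 were called higher and 308 lower against aged, and 335 and 163 against young. Neither areg nor HBEGFA was tested without replicate 1 or 2 of aged (Tm), replicate 2 of aged or replicate 4 of young, and HBEGFA also not without replicate 3 of aged (Tm) or of young, because they then failed the filter. The fit without a filter moved the median fold change of all tested genes over aged up to 0.70. In that fit HBEGFA was called over aged without each library in turn, with log2 fold changes of 2.21 to 3.27. The call of egf against aged was also lost without replicate 2 of aged (Tm) or replicate 1 or 3 of aged, that of ERBB3B without replicate 2 of aged (Tm) or replicate 1 or 4 of aged, and that of erbb3a without replicate 2 of aged (Tm) or replicate 3 of aged.

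**Figure D2:**
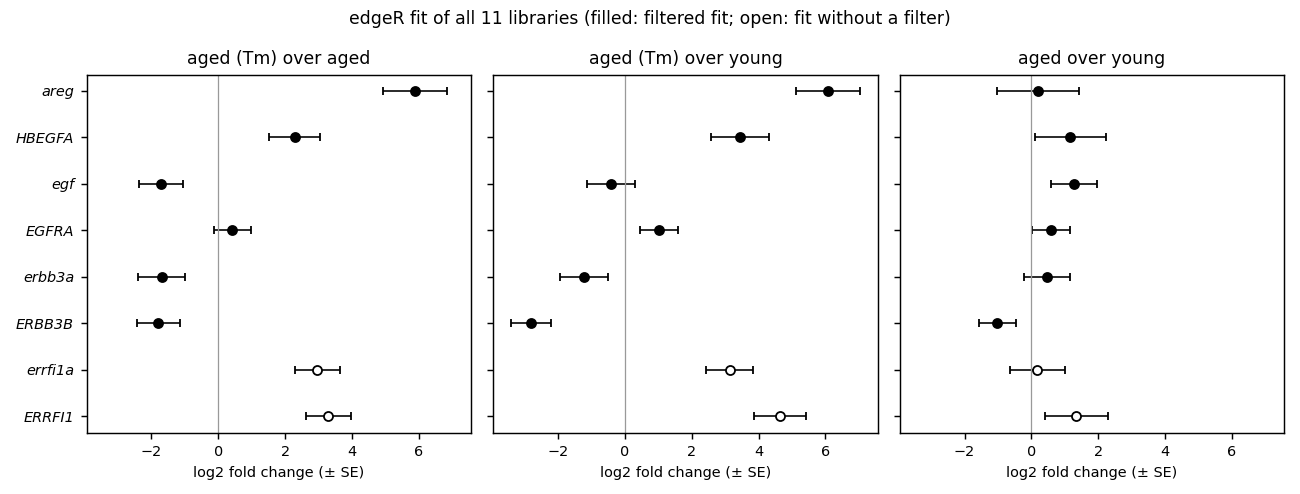
Log2 fold change with its SE (x axis) of members (y axis) in aged (Tm) over aged, aged (Tm) over young and aged over young; filled points are from the filtered edgeR fit and open points, for errfi1a and ERRFI1, from the fit without a filter. In aged (Tm) over aged, areg stands at 5.88 and HBEGFA at 2.28, and egf, erbb3a and ERBB3B lie at −1.71, −1.70 and −1.79.

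The inhibitor gene errfi1a had 60, 9 and 9 counts in aged (Tm), 1, 2, 1 and 6 in aged and 1, 3, 2 and 2 in young libraries. ERRFI1, the other copy, had 91, 2 and 5 counts in aged (Tm), 3, 1, 1 and 5 in aged and 1, 0, 0 and 3 in young libraries. In CPM replicate 1 of aged (Tm) stood far above its group for both genes, at 173 against 28.2 and 12.8 CPM for errfi1a and at 262 against 6.27 and 7.09 CPM for ERRFI1. The other aged (Tm) libraries lay within the range of the aged libraries, 7.53 to 33.3 CPM for errfi1a and 3.77 to 79.7 CPM for ERRFI1. Replicate 1 was also the aged (Tm) library with the highest levels of areg, HBEGFA and EGFRA.

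Neither inhibitor gene passed the filter. In the fit of all 22954 genes, 6.12% were called higher in aged (Tm) than in aged libraries and 4.6% higher than in young. HBEGFA, errfi1a and ERRFI1 were called higher in each, beside areg. That fit leaned upward, with a median over the genes tested with the filter of 0.70 over aged and 0.46 over young. The log2 fold changes over aged were 2.95 ± 0.67 for errfi1a (adjusted p = 0.000962, edgeR) and 3.29 ± 0.68 for ERRFI1 (adjusted p = 0.000191). Without replicate 1 of aged (Tm) they were 0.88 and −0.71, and neither was called.

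The protease genes had few counts. ADAM17A had 8.65, 0 and 26.9 CPM in aged (Tm), 106, 7.53, 39.0 and 16.6 CPM in aged and 9.36, 50.9, 170 and 30.2 CPM in young libraries, with overlap between all groups. ADAM17B had 11, 3 and 4 counts in aged (Tm), aged and young libraries. In the fit without a filter ADAM17A differed by 0.14 ± 0.70 on the log2 scale between aged (Tm) and aged and ADAM17B by 1.09 ± 1.02, with neither called.

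Counts of the 4 ligand and 5 receptor members were then compared within each library, which does not depend on scaling between libraries. Neuregulins, which bind the erbb3 receptors counted here, are not members and were left out. Among them nrg2a had the most counts, 163 in aged (Tm), 75 in aged and 110 in young libraries. The shares therefore hold only for these members and not for all EGF family ligands. Ligands made up 81.3% (95% exact Clopper-Pearson interval 77.6 to 84.7), 86.6% (79.4 to 92.0) and 46.5% (40.0 to 53.0) of the ligand and receptor counts in aged (Tm) libraries. In aged libraries the shares were 25.0%, 30.0%, 35.3% and 22.4%, and in young libraries 17.4%, 14.3%, 26.7% and 10.8%. All aged (Tm) shares were above all others, although the interval of replicate 3 of aged (Tm) overlapped those of replicate 1 (10.7 to 44.9%), replicate 2 (19.6 to 42.1%) and replicate 3 (14.2 to 61.7%) of aged and of replicate 3 of young (7.79 to 55.1%). areg gave 90%, 86.4% and 39.3% of the ligand counts in the aged (Tm) libraries. Because areg was selected for its high counts there, the shares that include it are only a description. With areg left out the ligand shares of aged (Tm) libraries were 30.3%, 46.9% and 34.5%, against 25.0%, 25.8%, 35.3% and 19.6% in aged and 13.6%, 14.3%, 26.7% and 6.19% in young libraries, so that the ranges of aged (Tm) and aged overlapped.

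**Figure D3:**
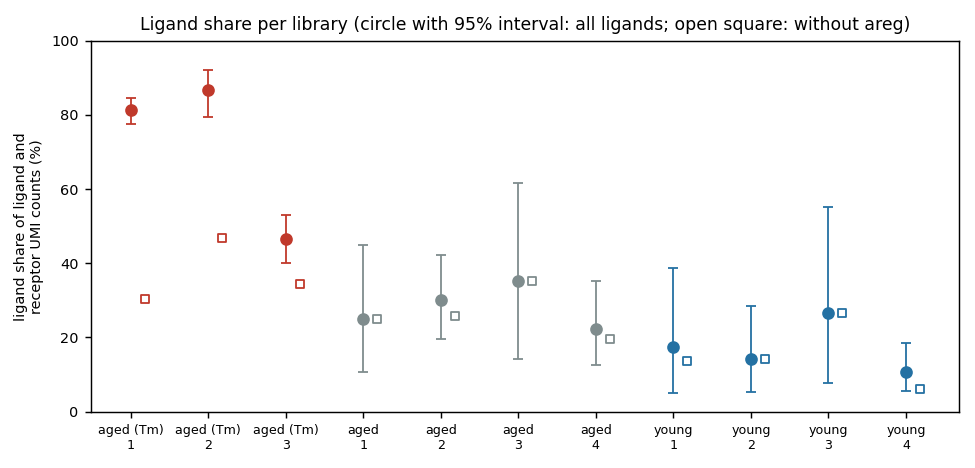
Member ligands as a share of member ligand and receptor UMI counts (y axis, percent) in each library (x axis), with 95% exact intervals. Open squares leave areg out, and neuregulins are not counted. Aged (Tm) libraries reach 46.5 to 86.6% with areg, which was selected for its high counts in them, and 30.3 to 46.9% without it.

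Genes of the pathway around the members were taken from lists written with earlier results known. Median log2 fold changes in aged (Tm) over aged were −0.32 for the other EGF family genes and −1.26 for ligand shedding. They were −0.28 for the ErbB adaptors and ERK cascade and −1.32 for receptor ubiquitination and endocytosis, beside −0.03 for all tested genes. Most tested genes of the other EGF family, shedding and endocytosis lists passed the filter on low counts only through aged and young libraries. The medians of these lists are therefore only a description. The median of ERK targets, 4.97, rests on only 3 of 30 genes. Among these mmp13a had 7168 counts in aged (Tm), 20 in aged and 8 in young libraries, so this median is only a description. Of the other EGF family genes, which include neuregulins and Lrig proteins, 5 of 10 were tested. Only lrig3 was called, lower in aged (Tm) than in aged libraries (log2 fold change −1.69 ± 0.57), where 20.2% of all tested genes were lower. In the ligand shedding list 2 of 8 tested genes were higher and 3 lower, where 18.5% of all tested genes were higher and 20.2% lower. The higher genes were pdia6 (2.62 ± 0.57) and P4HB (1.84 ± 0.54), both protein disulfide isomerases, which are enzymes of protein folding in the ER. With 127 counts in aged (Tm), 9 in aged and 10 in young, pdia6 passed the filter through aged (Tm), so its call is only a description. The lower genes were metalloproteases, 2 genes named ADAM12 (−2.68 ± 0.78 and −1.98 ± 0.61) and ADAM8B (−1.68 ± 0.62). All 3 passed the filter mainly through aged libraries, where they were high, so these calls are only a description as well. Against young libraries 2 genes of this list were higher, pdia6 and P4HB, and 1 of the ADAM12 genes was lower. Of all tested genes 15.9% were called higher and 13.2% lower against young. Leaving out replicate 1 of aged (Tm) ended the call of ADAM8B against aged.

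Of the ErbB adaptors and the ERK cascade, 18 of 55 genes were tested and 14 were not called in aged (Tm) over aged. Called higher were 2 and lower 2, beside 18.5% and 20.2% of all tested genes. RRAS, a small GTPase related to Ras, had 850, 771 and 325 CPM in aged (Tm), 79.7, 139, 39.0 and 77.6 CPM in aged and 150, 131, 28.3 and 107 CPM in young libraries. Every aged (Tm) library was above all others, and the log2 fold change over aged was 3.27 ± 0.66 (adjusted p = 0.00285, edgeR). The adaptor CRK was higher (1.53 ± 0.49), and the kinase mtor (−1.53 ± 0.56) and the exchange factor vav3b (−1.86 ± 0.72) were lower. Of these 4 genes only RRAS was still called without replicate 1 of aged (Tm). In the list of receptor ubiquitination and endocytosis 5 of 26 genes were tested. Of these dnm2a, a dynamin (−1.53 ± 0.60), and 1 of the genes named ITCH, a ubiquitin ligase (−1.52 ± 0.67), were lower, where 20.2% of all tested genes were. Neither was called without replicate 1 or 2 of aged (Tm) or replicate 3 or 4 of aged. The gene lrig3 was not called without replicate 1 of aged (Tm) or replicate 2 of aged. The genes lrig3, dnm2a and vav3b passed the filter mainly through aged libraries. The genes mtor and ITCH passed it through aged and young libraries, and none of them through aged (Tm). The calls of all these genes are therefore only a description. In the fit without a filter pdia6, P4HB, CRK and RRAS were still called higher over aged. None of the genes called lower above, from lrig3 and the ADAM12 genes to ITCH, was called there. The adaptor GRB7 was called lower in that fit, as were 173 of all 22954 genes.

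Of 41 symbols listed as targets and feedback genes of ERK signalling, 26 were found, for 30 genes, while others such as dusp6 and spry2 were not. The genes found were mostly too scarce to test, with 3 of 30 past the filter. All 3 rose in aged (Tm) over aged: mmp13a, a collagenase, by 8.03 ± 1.09 on the log2 scale, FOS, a subunit of the transcription factor AP-1, by 4.97 ± 0.93 and FOSL2, another AP-1 subunit, by 2.41 ± 0.58. FOS had 2436, 749 and 112 CPM in aged (Tm), 133, 45.2, 39.0 and 27.7 CPM in aged and 65.5, 87.2, 0 and 80.5 CPM in young libraries. Replicate 3 of aged (Tm) was below replicate 1 of aged, while the other aged (Tm) libraries were above all aged and young libraries. For mmp13a the aged (Tm) libraries had 10261, 8339 and 1341 CPM, against at most 55.5 CPM in aged and 28.1 CPM in young libraries. That gene thus passed the filter mainly through aged (Tm), and its value is a description. In each of these genes replicate 1 was the highest and replicate 3 the lowest of the aged (Tm) libraries, the same order as for areg.

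Without the filter 9 of the 30 genes were called higher over aged and 0 lower. Besides those 3 these were mmp9, DUSP5, fosl1a, MYCH, ETV5 and JUNBA. The rest were not called, among them DUSP1, DUSP4, SPRED1 and SPRY4, with at most 8 counts in each group. That fit leaned upward, with 6.12% of all 22954 genes called higher and only 173 genes lower. Its median fold change over the genes tested with the filter was 0.70, so 0 lower calls say little. DUSP5, a phosphatase that acts on nuclear ERK, had 248, 31.3 and 12.8 CPM in aged (Tm), 53.1, 0, 0 and 5.55 CPM in aged and 0, 7.27, 0 and 3.36 CPM in young libraries. mmp9, a gelatinase, had 1023, 62.7 and 18.4 CPM in aged (Tm), 0, 3.77, 0 and 11.1 CPM in aged and 0, 21.8, 28.3 and 13.4 CPM in young libraries. Without replicate 1 of aged (Tm) 5 genes were called, FOS, FOSL2, mmp13a, mmp9 and MYCH.

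**Figure D4:**
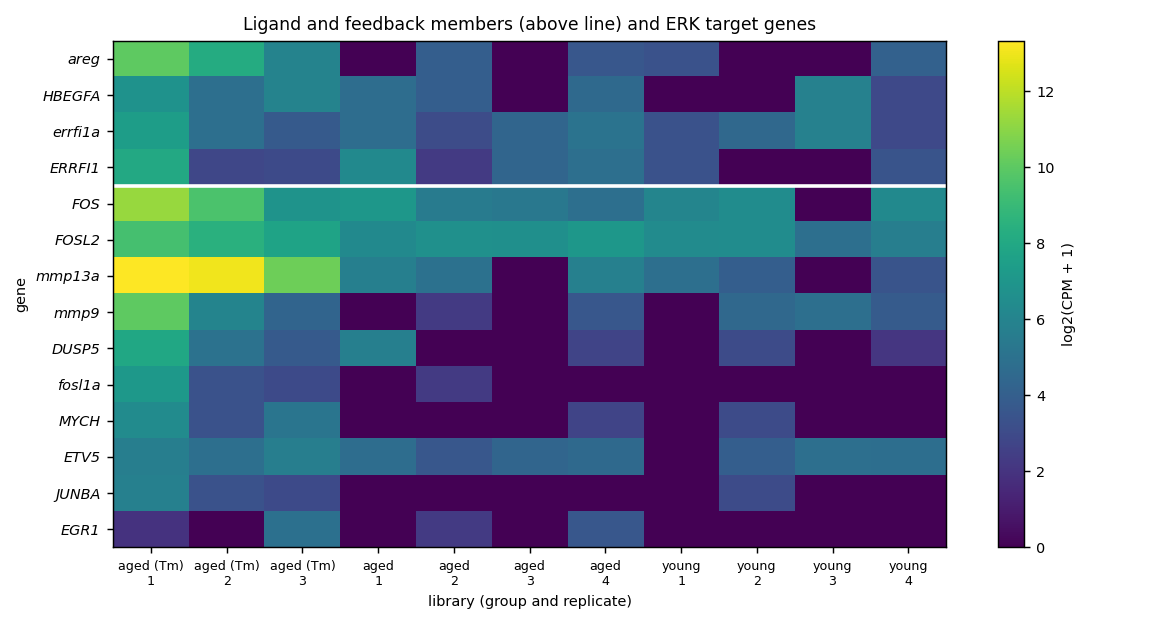
Heat map of log2(CPM + 1) (colour) in the 11 libraries (columns) for areg, HBEGFA and the errfi1 genes (above the white line) and ERK targets (below it). The ERK targets drawn are only the 10 of 30 matched genes called higher over young in the fit without a filter. The others, which were not called, are not drawn. Replicate 1 of aged (Tm) has the highest level of areg (1038 CPM), FOS (2436 CPM) and DUSP5 (248 CPM), and replicate 3 of aged (Tm) the lowest of that group.

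The genes whose log2 CPM followed areg most closely over the 11 libraries were HDAC6 (Pearson r = 0.985), OLA.5669 (0.977), NARS (0.976), PES (0.971) and hspa4b (0.964). These correlations share the contrast between aged (Tm) and the other libraries and are given as a description. HDAC6, named for a cytoplasmic deacetylase, had 5234, 3324 and 835 CPM in aged (Tm), 133, 166, 58.5 and 194 CPM in aged and 159, 72.7, 56.6 and 161 CPM in young libraries. NARS, an asparaginyl-tRNA synthetase, had 764, 617 and 166 CPM in aged (Tm), 0, 22.6, 0 and 11.1 CPM in aged and 28.1, 0, 0 and 20.1 CPM in young libraries. In all 5 genes replicate 3 of aged (Tm) was the lowest of its group and still above every aged and young library. Among the members, r with areg was 0.72 for HBEGFA, 0.40 for EGFRA, −0.73 for egf, −0.80 for erbb3a and −0.83 for ERBB3B.

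**Figure D5:**
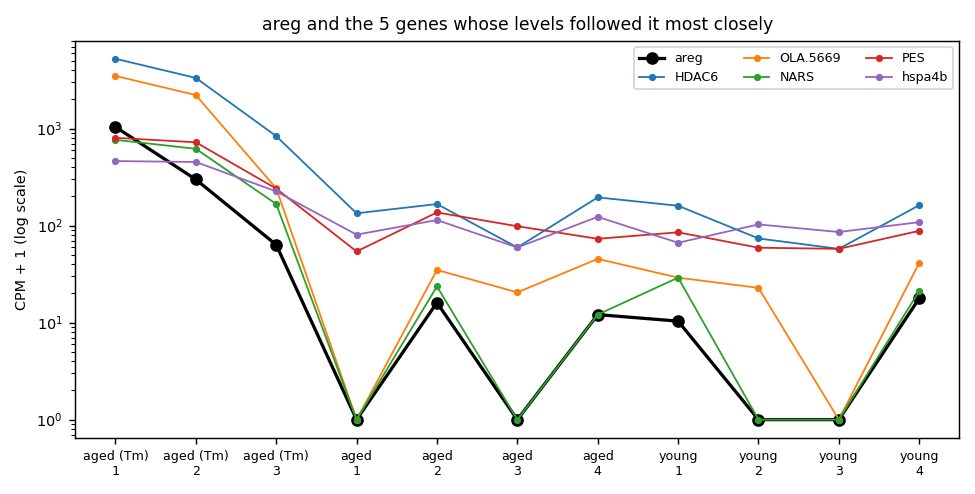
CPM + 1 on a log scale (y axis) of areg and the 5 genes most correlated with it in each library (x axis). In aged (Tm) libraries areg has 1038, 298 and 62.4 CPM and HDAC6 5234, 3324 and 835 CPM, and all 6 genes are higher there than in any aged or young library.

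With age alone, in aged over young libraries, 0 of the 6 tested members were called by edgeR, where 0.0757% of all tested genes were called higher and 0.631% lower. An unadjusted p under 0.05 was found for 0 of the 6 members and for 242 of the 3963 tested genes. DESeq2 and limma voom also called 0 members. Of the 6 tested members egf had the largest log2 difference, 1.28 ± 0.68 (adjusted p = 0.875, edgeR). Its mean was 80.7 ± 51.9 CPM (SD, n = 4) in aged and 31.3 ± 19.5 CPM (n = 4) in young libraries. ERBB3B averaged 66.6 ± 48.7 CPM in aged and 112 ± 28.3 CPM in young libraries, with −1.01 ± 0.56 (adjusted p = 0.888). For areg, with 6 counts in all aged and 6 in all young libraries, the fold change was 0.20 ± 1.24, and for EGFRA it was 0.60 ± 0.57. No gene of the pathway lists was called in this comparison, and the SEs of the 6 members were 0.56 to 1.24 on the log2 scale.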

How the data were processed

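The authors used UMI-tools for barcodes, HISAT2 for mapping and featureCounts for assignment to genes; versions 1.0.0, 2.1.0 and 1.6.4 are listed in the submitters' processing notes. The genome build and annotation are not given in the sources used here. The deposited values are UMI counts per gene without normalization for 22954 genes in 11 libraries, and the total count of a library sets the precision of its CPM. Symbols are spelled as in the table. Near-identical gene copies may share sequences, so values of the 2 genes of a pair (EGFR, erbb3, errfi1, adam17, ADAM12, ITCH) are uncertain.

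Counts were fitted across all genes with edgeR 4.0.16 in R 4.3.3 (quasi-likelihood test, two-sided, TMM, filterByExpr by group, 3963 genes, Benjamini-Hochberg, threshold 0.1, group as the only term). The members and lists were chosen with earlier results of these data known. Named genes are all members, the called list genes and the 5 genes most correlated with areg in log2 CPM (prior count 2); the further ERK targets named from the fit without a filter, tp63, krt5, GRB7 and SOX10 were named after their values were seen. Alternatives were normalization by total count, RLE or upper quartile, no filter, 10 counts in 3 libraries, DESeq2 1.42.0, limma voom (3.58.1), only the groups compared, thinning to 35366 counts, thresholds of 0.05 and 0.5, a replicate block and leaving out each library. The fits without a filter for errfi1 and the lists were added after seeing the data. The procedure was tested on simulated data. Barcode sequences were not analysed here. Figures were drawn with matplotlib 3.10.9.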

Additional observations from a re-analysis of the deposited data

Results flagged for a closer look

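In 3 of 26 groups of 4 libraries checked, 1 library lay far from the rest of its group by Dixon's criterion. Its usual rate of about 1 of 20 groups assumes normally distributed values. These levels rest on few counts, often 0, so the 3 groups cannot be set against that rate. ADAM17B had 13.4 CPM in replicate 4 of young (4 counts) and 0 in the other young libraries. HBEGFA had 56.6 CPM in replicate 3 of young, which rests on 2 counts in the smallest library, and the next highest young library had 6.71 CPM. ERBB2 had 106 CPM in replicate 1 of aged, which rests on 4 counts, and the next highest aged library had 19.5 CPM. The groups of 3 aged (Tm) libraries were not checked in this way.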

How the results depend on the processing

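The number of members called in aged (Tm) over aged, areg included, was 5 in the fit reported. Because areg was selected for its high counts in aged (Tm), and HBEGFA passed the filter mainly through that group, such numbers are only a description. The number was 3 with at least 10 counts in 3 libraries, 3 at a threshold of 0.05 and 0 after thinning, where no member passed the filter. With single libraries left out it was 0 to 5. Of all tested genes, 849 of 4190 were called higher and 660 lower with at least 10 counts, and 535 of 3963 and 508 at 0.05. With single libraries left out, 457 to 1019 genes were called higher and 254 to 947 lower. The count was 0 without replicate 1 of aged (Tm), 1 without its replicate 2, 2 without replicate 1 of aged, 1 without replicate 2 of aged and 1 without replicate 4 of young; without the last 2 only 2 members were tested, and areg and HBEGFA were not tested without those 2 or without replicate 1 or 2 of aged (Tm). In aged (Tm) over young, 3 became 5 without a filter, 5 with DESeq2, 5 at a threshold of 0.5 and 0 after thinning. The number was 1 to 4 when single libraries were left out. Of all genes, 1057 of 22954 were called higher and 181 lower without a filter, and 1397 of 7372 and 387 with DESeq2. At a threshold of 0.5 most tested genes were called, with 1375 of 3963 higher and 1517 lower. With single libraries left out, 335 to 965 genes were called higher and 163 to 707 lower. In aged over young the number of members called was 0 under every alternative run. The log2 fold change of EGFRA in aged (Tm) over aged was −0.18 with upper quartile and −0.33 with total count scaling and −0.58 to 1.00 with single libraries left out, and over young the EGFRA value was −0.039 to 1.65 with single libraries left out. That of areg in aged over young was −0.21 to 0.47 with libraries left out, that of egf in aged (Tm) over young 0.17 without a filter, and that of ERRFI1 without a filter in aged (Tm) over aged −0.71 to 3.88. Scaling moved the median of all tested genes in aged (Tm) over aged to 0.70 without a filter, −0.52 with upper quartile and −0.58 with total counts. Except where named, the cause was not tested. Labels share replicate numbers. Deviations from the group means had r from −0.51 to 0.38 between same-numbered libraries and −0.56 to 0.62 between other pairs across groups. Whether same-numbered libraries share a batch or anything else beyond the number was not tested. With a replicate block 4 members were called in aged (Tm) over aged and 3 in aged (Tm) over young, with 0 for age. The no-filter fold change of areg over aged was 4.96 to 7.33 with libraries left out. Few counts per library limit the members most, above all the 7 that did not pass the filter.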
